A study of Mus musculus with 23 samples.

Results

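The genes described here are the antioxidant enzymes of the glutathione, peroxiredoxin and thioredoxin systems. They were chosen by symbol alone. The rule took the soluble glutathione S-transferases (Gsta, Gstk, Gstm, Gsto, Gstp, Gstt and Gstz) and those of membranes (Mgst). It also took the glutathione peroxidases (Gpx), peroxiredoxins (Prdx), superoxide dismutases (Sod), thioredoxins (Txn) and thioredoxin reductases (Txnrd), together with Gclc, Gclm, Gss and Gsr. The deposited table of 24029 genes held 52 of them, in 14 families. No measured value entered this rule, though it was set with earlier results of these data known. The series compares TELP, a library construction method, with standard libraries, and takes its RNA from mouse cells before and after they were turned into fat cells. Of its 23 samples 6 are RNA libraries, and the other 17, made from chromatin, were not analysed here.

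Superoxide dismutases turn superoxide into hydrogen peroxide, which glutathione peroxidases, peroxiredoxins and catalase then reduce to water. Glutathione peroxidases draw on glutathione, which Gsr returns to its reduced form, while most peroxiredoxins draw on thioredoxin, which thioredoxin reductases recycle, and both routes are paid for in NADPH. Glutathione S-transferases couple glutathione to electrophiles, among them the aldehydes left by oxidized lipids, which is one reason these enzymes are studied in fat cells.

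The cells were C3H10T1/2, a mesenchymal stem cell line of the mouse strain C3H, so every library comes from 1 established line and not from tissue. Per the labels' protocols, all cells were seeded at 70% confluency and given 8.3 nM human recombinant BMP7 for 3 days before differentiation, so the day 0 cells had met BMP7 too. From day 0 to day 2 the medium held 5 uM DEX, 0.5 mM IBMX, 0.12 ug/ml insulin, 1 uM Rosi and 1 nM T3, and from day 2 to day 7 only the insulin, Rosi and T3, always over 10% Fetalclone III serum. The submitters call the cells pre-adipocytes at day 0 and mature adipocytes at day 7. Each day has 1 library from a standard poly(A) procedure and 1 TELP library labelled N9, and day 7 has 2 further TELP libraries, N9_ss and T18, whose names the labels leave unexplained, as they do N9. Every group is 1 library, so no difference below has a replicate check, and nothing says that the RNA of different libraries came from separate cultures. N9_ss in particular may share reads with N9, as the values below show, and where day 7 libraries are counted the pair may stand for 1.

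Values are RPKM, reads scaled by gene model length and library total, so levels of different genes can be compared within a library. Pairs of values are given for day 0 first and day 7 second. Folds are differences of log2(RPKM + 1), which understates the change of low genes, and genes with an average of 1 RPKM or more in the libraries set side by side were called where that difference reached 1 log2 unit either way. Relative to the standard day 0 library, sequencing depth was 0.985 in standard day 7, 1.57 in TELP N9 day 0 and 0.331 to 0.400 in the TELP libraries of day 7, as read from the steps between low values. Small noncoding RNAs held 9.18% to 17.5% of the summed RPKM in the standard and TELP N9 day 0 libraries. They held 34.0% to 35.7% in N9_ss and N9 day 7 and 73.9% in T18. Scalings that left them out are given with the alternatives at the end, and no cause was tested. The summed RPKM of 8 adipocyte markers was 29.8 to 39.9 in the day 0 libraries and 5569 to 33241 in those of day 7, while that of 5 preadipocyte markers was 159 to 174 at day 0 and 6.62 to 77.5 at day 7. The sum of 4 brown adipocyte markers was 0.787 to 1.12 RPKM at day 0 and 76.3 to 522 at day 7, mostly Cox8b, with Ucp1 at 0.882 or less. Macrophage markers summed to 0.944 to 6.19 RPKM in the 6 libraries, and all 3 hepatocyte markers, Alb, Ttr and Apoa1, were listed at 0. Sums ranged from 1.63 to 36.6 RPKM for skeletal muscle, 0 to 11.3 for endothelial, 1.98 to 17.1 for osteoblast and 0.0444 to 5.02 for chondrocyte markers, each highest at day 0. In such bulk RNA, fewer cells with a transcript and less of it per cell cannot be told apart.

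Many genes of glutathione and thioredoxin metabolism are known targets of NRF2, a transcription factor that binds antioxidant response elements with the core TGANNNNGC, most often in the form TGACNNNGC. RefSeq promoter windows of 300 bases (GRCm38.p6, a build other than that of the deposited values) could be matched to 44 members, with 58 windows. On either strand, 26 of the 58 windows (44.8%) held TGANNNNGC, against 41.8% of all 20412 windows. The narrower TGACNNNGC, every match of which is also a match of the first, was found in 8 of 58 (13.8%) against 13.1%. The direct repeat bound by PPAR and RXR, written as AGGTCA, 1 base and AGGTCA again, was in 0 member windows and in 0.0588% of all windows. The members' windows thus held these letters about as often as promoters in general, and their median GC content was 57% against 56.7%.

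The 5 windows shown were picked from those with a match. They belong to Mgst1, Sod1 and Gstz1, which were among the members higher at day 7 in both library types. The others belong to Gclm and Prdx1, textbook NRF2 targets that were not called in either. Capitals mark each match of TGANNNNGC, on either strand. In Mgst1 the match lies at position -56 from the annotated start, on the opposite strand, where it reads TGACCGTGC. Sod1 has TGACCACGC at the same position and strand. Gclm has TGACGGTGC at -134 and Prdx1 has TGACTCAGC at -133, both on the opposite strand. The 2 matches in the Gstz1 window shown are of the broader form only. A second window of Mgst1 held 0 matches, and a second window of Gstz1 held 2 more, also of the broader form.
Mgst1, chr6:138140277-138140576, plus strand: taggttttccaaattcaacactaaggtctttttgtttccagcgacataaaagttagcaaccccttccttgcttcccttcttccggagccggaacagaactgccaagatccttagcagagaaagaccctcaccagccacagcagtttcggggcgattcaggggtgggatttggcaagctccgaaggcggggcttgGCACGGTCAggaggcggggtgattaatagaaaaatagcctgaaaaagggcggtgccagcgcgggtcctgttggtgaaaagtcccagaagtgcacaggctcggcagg
Sod1, chr16:90220512-90220811, plus strand: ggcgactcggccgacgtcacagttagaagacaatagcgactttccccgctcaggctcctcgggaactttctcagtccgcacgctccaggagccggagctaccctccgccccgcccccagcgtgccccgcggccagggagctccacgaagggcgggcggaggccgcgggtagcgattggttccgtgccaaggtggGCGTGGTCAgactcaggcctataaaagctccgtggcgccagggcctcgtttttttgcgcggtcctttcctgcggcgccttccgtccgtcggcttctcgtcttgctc
Gstz1, chr12:87146915-87147214, plus strand: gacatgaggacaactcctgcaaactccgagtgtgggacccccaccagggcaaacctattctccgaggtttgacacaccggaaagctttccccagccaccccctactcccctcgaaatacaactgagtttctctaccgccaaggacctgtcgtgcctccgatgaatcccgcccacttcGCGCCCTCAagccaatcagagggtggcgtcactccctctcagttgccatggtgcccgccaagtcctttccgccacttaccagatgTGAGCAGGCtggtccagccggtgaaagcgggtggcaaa
Gclm, chr3:122245307-122245606, plus strand: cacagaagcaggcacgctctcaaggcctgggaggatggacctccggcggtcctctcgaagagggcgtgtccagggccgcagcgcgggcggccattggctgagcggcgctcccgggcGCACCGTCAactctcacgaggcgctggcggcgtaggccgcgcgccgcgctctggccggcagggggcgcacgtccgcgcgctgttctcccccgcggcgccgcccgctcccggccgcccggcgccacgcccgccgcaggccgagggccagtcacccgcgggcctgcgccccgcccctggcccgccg
Prdx1, chr4:116685349-116685648, plus strand: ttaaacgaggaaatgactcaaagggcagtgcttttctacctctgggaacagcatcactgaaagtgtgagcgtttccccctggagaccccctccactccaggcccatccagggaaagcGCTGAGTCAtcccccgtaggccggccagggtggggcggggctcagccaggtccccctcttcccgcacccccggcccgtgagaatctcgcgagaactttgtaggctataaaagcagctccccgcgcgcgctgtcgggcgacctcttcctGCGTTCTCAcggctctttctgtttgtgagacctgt
The windows of Mgst3, Prdx3, Prdx4, Sod2 and Gpx4, the other members called in both library types, held no match of TGANNNNGC. A match describes the letters only, and no binding was measured.

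Of the 52 members, 33 reached 1 RPKM in all 6 libraries and 28 reached 10 RPKM in both standard libraries. The 5 members Gstk1, Gpx2, Gpx5, Gpx6 and Gstt4 were listed at 0 in every library, and 6 more, Gpx2-ps1, Gpx3, Gsta1, Gsta2, Gstm6 and Gstm7, stayed below 1 RPKM throughout. With Gpx7, Gsta3 and Gstt2 these are the 14 members left out of the comparison of days in the standard libraries for low values. Before differentiation Prdx1, a cytosolic peroxiredoxin, was the most abundant single member, with 383 RPKM in the standard library and 377 in TELP N9. At day 7 the lead passed to Mgst1, a microsomal glutathione transferase, with 711 RPKM in the standard library and 1410.4 in TELP N9, but in T18 Gpx4 led with 234 RPKM before Mgst1 with 210.3. The share of Mgst1 in the members' summed RPKM was 1.33% and 18.3% in the standard libraries of day 0 and day 7, and 0.837% and 24.6% in TELP N9. The members together summed to 2313 and 3893 RPKM with the standard method, then 2563 and 5731 with TELP N9, again at day 0 and day 7.

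**Figure D1:**
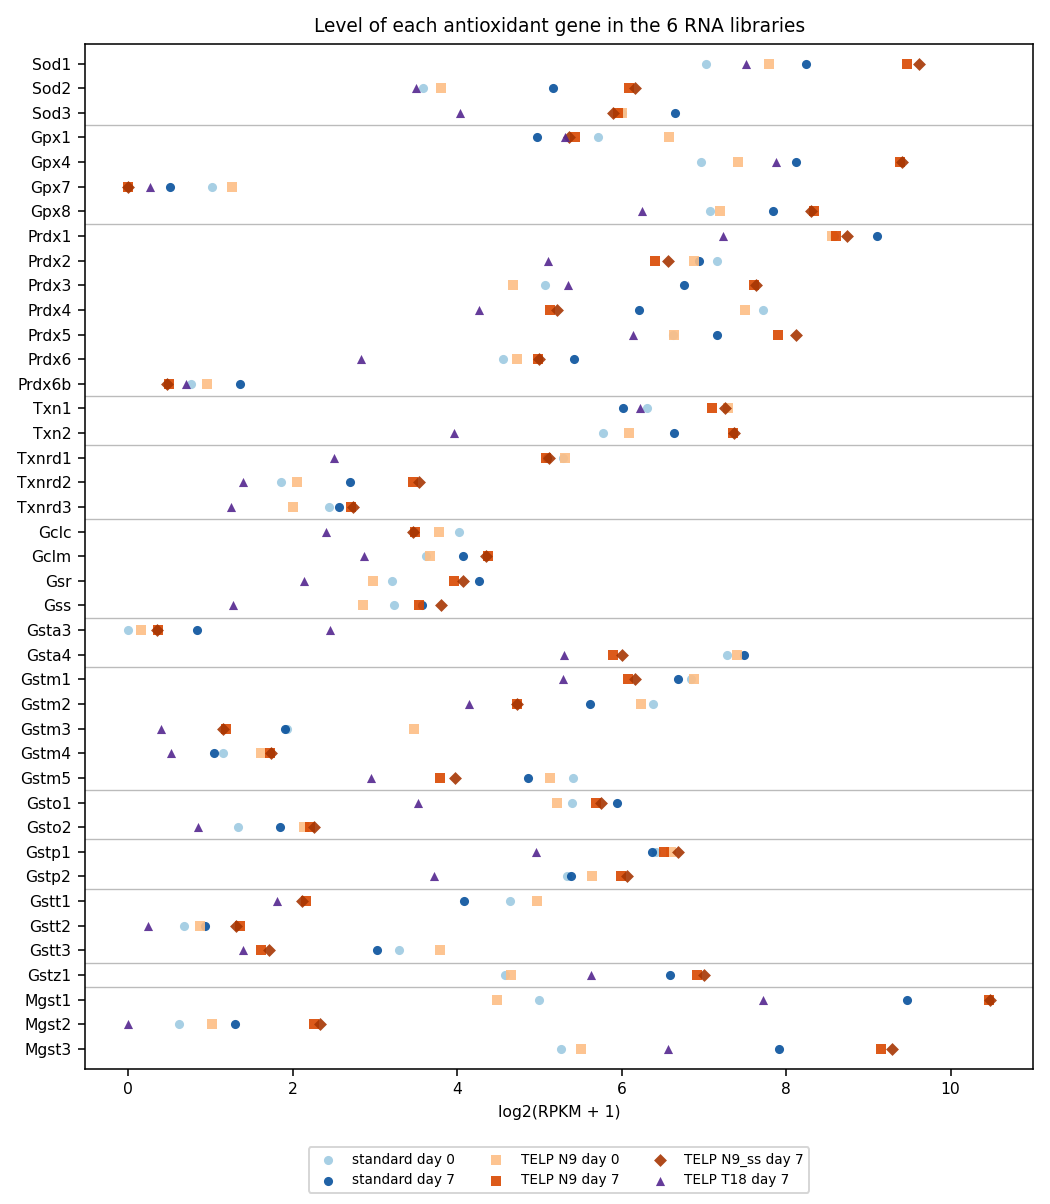
Level of the 41 members that reached 1 RPKM in any library, as log2(RPKM + 1) on the horizontal axis, with 1 symbol per library and grey lines between families. The day 7 symbols of Mgst1 and Mgst3 lie far to the right of their day 0 symbols, those of Prdx4 lie to the left, and the T18 triangle is the lowest symbol for many genes.

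The first comparison asked how these genes differed between adipocytes and pre-adipocytes. A group of 7 members was higher at day 7 in both library types: the microsomal transferases Mgst1 and Mgst3, the transferase Gstz1, the mitochondrial enzymes Prdx3 and Sod2, the cytosolic Sod1 and the lipid peroxidase Gpx4. Only Prdx4, the peroxiredoxin of the secretory pathway, was lower in both. These are 7 and 1 of the 37 members kept, where 7.23% of all genes kept were higher in both types and 5.81% lower. With T18 in place of N9 as the day 7 TELP library 2 members, Mgst1 and Mgst3, were higher in both types and Prdx4 lower. The TELP folds of Sod1 and Sod2 then turned to -0.27 and -0.31. T18 was at least 1 log2 unit below N9 for 83.4% of all genes, and shares of all genes for this swap are not given. In the standard libraries alone 8 members of 38 were higher and 1 lower, beside 8.22% and 6.53% of all genes, the eighth being Gsr. In the TELP N9 libraries 12 of 38 were higher and 8 lower, beside 13.9% and 29.9% of all genes. Higher calls were thus 60% of the members' calls in TELP N9, but 80% with median of ratios scaling and 43.8% with equal totals. For all genes these shares were 31.8%, 53.9% and 17.5%, so they moved the same way. The median member stood at 0.49 log2 units in the standard libraries, where the median gene stood at -0.18, and at 0.30 against -0.45 in TELP N9.

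A limma fit over the 4 libraries, with library type as a block, removed differences in level between library types. It measured the day against the disagreement of the day's fold between library types, not against the spread between cultures. Each gene had 1 residual degree of freedom, and 3.39 prior degrees of freedom came from variance shared across genes. Standard errors and p-values thus rest more on that shared variance than on the gene's own. By limma with Benjamini-Hochberg adjustment over 11474 genes, Mgst1 passed, higher at day 7 by 5.23 log2 units (SE 0.494, adjusted p = 0.0344). It was the 1 member of 37 that did so upward, none passed downward, and of all genes 1.41% passed upward and 0.209% downward. At an unadjusted p below 0.05 the fit held 15 of the 37 members (40.5%), beside 27.3% of all genes. Adjusted limma p-values were 0.0532 for Mgst3, 0.0578 for Gstz1, 0.0799 for Sod2, 0.0895 for Prdx3 and 0.0950 for Prdx4. They were 0.137 for Gpx4 and 0.140 for Sod1, so 7 of the 8 members called in both library types are called by size only.

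**Figure D2:**
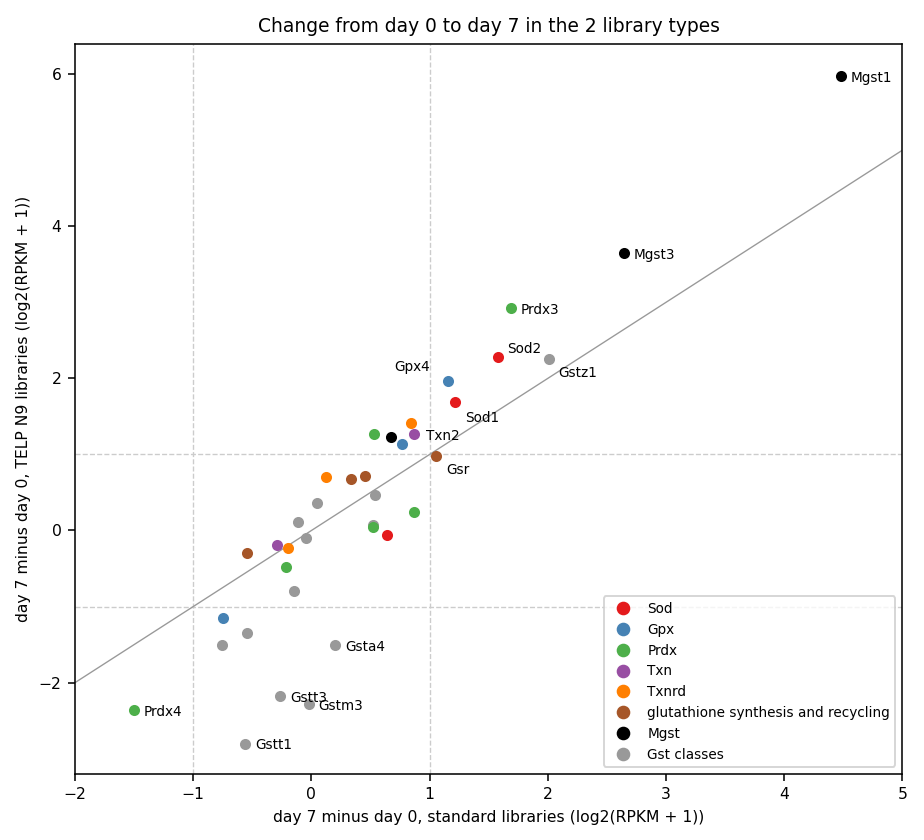
Difference between day 7 and day 0 in log2(RPKM + 1) for 37 members, in the standard libraries on the horizontal axis and in TELP N9 on the vertical axis, with dashed lines at 1 and -1 and a solid line where both are equal. Mgst1, Mgst3, Prdx3, Sod2, Gstz1, Gpx4 and Sod1 lie beyond 1 on both axes and Prdx4 beyond -1. The transferases Gsta4, Gstm3, Gstt1 and Gstt3 lie between -0.56 (Gstt1) and 0.20 (Gsta4) on the horizontal axis and below -1 on the vertical one.

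Mgst1 and Mgst3 had the largest positive day 7 folds of all members kept, in both library types. Mgst1, a membrane enzyme with transferase and peroxidase activity, was at 30.8 and 711 RPKM at day 0 and day 7 of the standard method, at 21.5 and 1410.4 in TELP N9, at 1428 in N9_ss and at 210.3 in T18. All 4 libraries of day 7 thus lay above both of day 0, with a ratio of 23.1 with the standard method and 65.7 with TELP N9. At day 0 its level was at or above that of 91.0% of all genes in the standard library, and at day 7 99.8%. Mgst3, of the same superfamily, was at 37.4 and 239 RPKM in the standard libraries, at 44.5 and 569 in TELP N9, at 622 in N9_ss and at 93.9 in T18. Its log2 fold was 2.65 with the standard method and 3.65 with TELP N9, and again no day 7 library fell among those of day 0. Mgst2 was far lower, at 0.541 and 1.46 RPKM with the standard method and 1.03 and 3.77 with TELP N9. The smallest whole read numbers that fit its values, within 0.4% or 0.01 read, are 3, 8, 9 and 8 in that order, with 9 in N9_ss and 0 in T18, so its folds of 0.68 and 1.23 rest on few reads. Within the family the balance turned over, since Mgst1 held 44.8% of the summed RPKM at day 0 and 74.7% at day 7 with the standard method, and 32.0% and 71.1% in TELP N9.

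Both intracellular superoxide dismutases were higher at day 7, and the secreted one was not called. Sod1, the copper-zinc enzyme of the cytosol, was at 129.9 and 303 RPKM in the standard libraries, at 219.9 and 709 in TELP N9, at 782 in N9_ss and at 182 in T18. T18 was the exception to an otherwise clean order, lying below TELP N9 day 0. The log2 fold of Sod1 was 1.22 and 1.68 in the standard and TELP N9 libraries. Sod2, the manganese enzyme of the mitochondrial matrix, was at 11.0 and 34.9 RPKM in the standard libraries, at 13.0 and 67.1 in TELP N9, at 70.8 in N9_ss and at 10.3 in T18. Its log2 folds were 1.58 and 2.28, and T18 alone among the day 7 libraries was below both of day 0. Sod3, which is secreted, was at 63.3 and 99.0 RPKM with the standard method, then 63.4 and 60.8 with TELP N9, with log2 folds of 0.64 and -0.06. Its share of the family's summed RPKM was 31.0% at day 0 and 22.7% at day 7 with the standard method, and 21.4% and 7.27% in TELP N9.

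Among the glutathione peroxidases Gpx4 was higher at day 7 and Gpx1 stood lower. Gpx4, which reduces peroxides within membrane lipids and so holds off ferroptosis, was at 124 and 277 RPKM in the standard libraries, at 169.8 and 669 in TELP N9, at 676 in N9_ss and at 234 in T18. All 4 day 7 libraries lay above both day 0 libraries, with log2 folds of 1.16 and 1.97 in the 2 library types. Gpx1, the abundant peroxidase of cytosol and mitochondria, was at 51.5 and 30.3 RPKM in the standard libraries, at 94.7 and 42.1 in TELP N9, at 40.2 in N9_ss and at 38.6 in T18. The standard, N9 and N9_ss values of day 7 were below both day 0 values, and so was that of T18, which was low for most genes. The log2 difference was -0.75 in the standard libraries, short of a call, and -1.15 in TELP N9, where it was called. Gpx8, an enzyme of the endoplasmic reticulum, was at 134 and 229 RPKM with the standard method and 146 and 323 with TELP N9, and was called in TELP N9 only, with log2 folds of 0.77 and 1.14. Gpx7, its relative in the same compartment, was at 1.03 and 0.419 RPKM with the standard method and at 1.40 in TELP N9 day 0. The smallest whole reads that fit those values are 15, 6 and 32. It was listed at 0 in N9 and N9_ss day 7, where a floor of 3 such reads equals 0.539 RPKM in N9. On the deposited scale its TELP N9 day 0 value was 2.59-fold that floor, with no allowance for counting error at day 0. As a share of the family's summed RPKM, Gpx4 held 39.8% and 51.6% with the standard method, then 41.2% and 64.6% with TELP N9, while Gpx1 held 16.6% and 5.65%, and 23.0% and 4.07%.

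Among the peroxiredoxins Prdx3 was higher and Prdx4 lower at day 7, while the family's summed RPKM stayed between 823 and 1062 in every library except T18. Prdx3, the peroxiredoxin of the mitochondrial matrix, was at 32.6 and 107 RPKM in the standard libraries, at 24.6 and 194 in TELP N9, at 198 in N9_ss and at 39.7 in T18. Every day 7 library lay above both of day 0, T18 by the least, and the log2 fold was 1.69 with the standard method and 2.93 with TELP N9. Prdx4, which works in the endoplasmic reticulum, was at 209.8 and 73.3 RPKM in the standard libraries, at 179 and 34.1 in TELP N9, at 36.2 in N9_ss and at 18.2 in T18. Prdx4 was lower in the standard, N9 and N9_ss libraries of day 7 than in both of day 0, and also in T18, which was low for most genes. The ratio of day 0 to day 7 was 2.86 with the standard method and 5.26 with TELP N9. Prdx1 was at 383 and 551 RPKM in the standard libraries, at 377 and 389 in TELP N9, at 426 in N9_ss and at 149 in T18. Its log2 folds of 0.52 and 0.05 were not called, and N9 day 0 and day 7 were nearly level. Prdx5, found in mitochondria, peroxisomes and cytosol, was called in TELP N9 only, with log2 folds of 0.53 and 1.27. Neither Prdx2, another cytosolic enzyme, at -0.22 and -0.48, nor Prdx6, which reduces phospholipid peroxides, at 0.87 and 0.25, was called. Reads of Prdx6 may be shared with its near-identical copy Prdx6b, which was at 0.406 to 1.57 RPKM over the standard and N9 libraries. Prdx4 held 23.6% of the family at day 0 and 7.05% at day 7 with the standard method, and 21.8% and 3.52% in TELP N9. For Prdx3 these shares were 3.66% and 10.3%, and 2.99% and 19.98%, so the mitochondrial enzyme passed that of the endoplasmic reticulum in both library types.

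In the thioredoxin system the mitochondrial members stood higher at day 7 and the cytosolic ones nearly level, though none was called in both library types. Txn2, mitochondrial thioredoxin, was at 53.5 and 98.8 RPKM in the standard libraries, at 67.2 and 163 in TELP N9, at 164 in N9_ss and at 14.6 in T18. Its log2 fold was 0.87 with the standard method and 1.27 with TELP N9, and T18 lay below every other library. Txnrd2, its reductase, was at 2.63 and 5.50 RPKM in the standard libraries, at 3.14 and 9.99 in TELP N9, at 10.7 in N9_ss and at 1.63 in T18. Its log2 folds were 0.84 and 1.41, with the lowest value again in T18. Txn1, cytosolic thioredoxin, was at 78.3 and 63.7 RPKM in the standard libraries, at 156 and 136 in TELP N9, at 152 in N9_ss and at 73.8 in T18. Outside T18, both TELP N9 libraries and N9_ss lay above both standard ones, and the folds between days were -0.29 and -0.19. Txnrd1, the cytosolic reductase, was at 38.2 and 33.2 RPKM in the standard libraries, at 38.8 and 32.8 in TELP N9, at 33.8 in N9_ss and at 4.69 in T18. Outside T18 it thus stayed within a narrow band, with folds of -0.19 and -0.24. Txnrd3, a reductase with an added glutaredoxin domain, had folds of 0.12 and 0.70. Txn2 made up 40.6% and 60.8% of the summed thioredoxin RPKM at day 0 and day 7 in the standard libraries, and 30.2% and 54.5% in TELP N9.

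Of the 4 genes that make and recycle glutathione only Gsr was called, in the standard libraries. Gclc, the catalytic subunit of the rate-limiting ligase, was at 15.3 and 10.2 RPKM in the standard libraries, at 12.8 and 10.2 in TELP N9, at 10.1 in N9_ss and at 4.29 in T18. Gclm, its modifier subunit, was at 11.3 and 15.8 RPKM in the standard libraries, at 11.7 and 19.8 in TELP N9, at 19.4 in N9_ss and at 6.29 in T18. The log2 folds were -0.54 and -0.30 for Gclc and 0.45 and 0.71 for Gclm, though in TELP N9 that of Gclc turned to 0.19 with median of ratios scaling and 0.05 with quantile normalization. On the deposited scale Gclc was the higher of the pair in both day 0 libraries and Gclm in all of day 7. Gss, glutathione synthetase, was at 8.42 and 10.9 RPKM in the standard libraries, at 6.25 and 10.6 in TELP N9, at 12.9 in N9_ss and at 1.42 in T18, with folds of 0.33 and 0.68. Gsr, which reduces oxidized glutathione with NADPH, was at 8.26 and 18.2 RPKM in the standard libraries, at 6.90 and 14.6 in TELP N9, at 15.8 in N9_ss and at 3.40 in T18. The folds of Gsr, 1.06 and 0.98, lie just beyond and just short of the threshold in the standard and TELP N9 libraries, and this difference between types was not tested. Within this group Gsr held 19.1% and 33.1% of the summed RPKM with the standard method, then 18.3% and 26.4% with TELP N9.

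Of the cytosolic transferases only Gstz1 was called in both library types. Gstz1, an enzyme of tyrosine breakdown, was at 23.0 and 95.5 RPKM in the standard libraries, at 24.2 and 119 in TELP N9, at 127 in N9_ss and at 48.5 in T18. Each day 7 library lay above both of day 0, and the folds were 2.01 and 2.25. Gsta4, which conjugates the lipid aldehyde 4-hydroxynonenal, was at 155 and 179 RPKM in the standard libraries, at 169 and 58.5 in TELP N9, at 63.3 in N9_ss and at 38.4 in T18. It was thus slightly higher at day 7 in the standard libraries, by 0.20 log2 units, and lower in TELP N9, at -1.51. Gstm1, the leading transferase of the mu class, was at 114 and 102 RPKM in the standard libraries, at 117 and 66.6 in TELP N9, at 70.8 in N9_ss and at 38.2 in T18. Its folds of -0.15 and -0.80 were not called. Gstm3, of the same class, was at 2.82 and 2.75 RPKM in the standard libraries, at 10.1 and 1.27 in TELP N9, at 1.22 in N9_ss and at 0.315 in T18, and stood out by its high TELP N9 day 0 value. Gstm2 and Gstm5 were called lower in TELP N9 only, with folds of -0.76 and -1.51 for Gstm2 and of -0.55 and -1.34 for Gstm5. Mu class genes are close copies of each other, and how reads were shared among them is not given in the sources used here.

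Of the theta class, Gstt1 was at 23.9 and 15.9 RPKM in the standard libraries, at 30.3 and 3.49 in TELP N9, at 3.33 in N9_ss and at 2.52 in T18. Gstt3 was at 8.82 and 7.18 RPKM in the standard libraries, at 12.8 and 2.07 in TELP N9, at 2.29 in N9_ss and at 1.63 in T18. Both were lower in the standard, N9 and N9_ss libraries of day 7 than in both of day 0, and also in T18, which was low for most genes. They were called in TELP N9 only, at -2.80 and -2.17 against -0.56 and -0.26 in the standard libraries. Gsto1, an omega class thiol transferase, was at 41.3 and 60.4 RPKM in the standard libraries, at 36.2 and 50.5 in TELP N9, at 52.9 in N9_ss and at 10.5 in T18, with folds of 0.54 and 0.47. Gstp1, the main pi class transferase, was at 84.4 and 81.7 RPKM in the standard libraries, at 96.4 and 90.2 in TELP N9, at 102 in N9_ss and at 30.2 in T18. It was nearly level between days, with folds of -0.05 and -0.10, though its reads cannot be told apart with certainty from those of its near-identical copy Gstp2, whose folds were 0.05 and 0.36. Gsta3, another alpha class gene, was listed at 0 in standard day 0, at 0.782 RPKM in standard day 7, at 0.113 and 0.287 in TELP N9, at 0.274 in N9_ss and at 4.48 in T18, where alone it passed 1 RPKM. Of the members not yet given, Gstm4 had log2 folds of -0.11 and 0.11 and Gsto2 of 0.52 and 0.08. Gstt2 rests on 10 to 22 reads in all libraries but T18, which has 1, by the smallest whole numbers that fit.

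**Figure D3:**
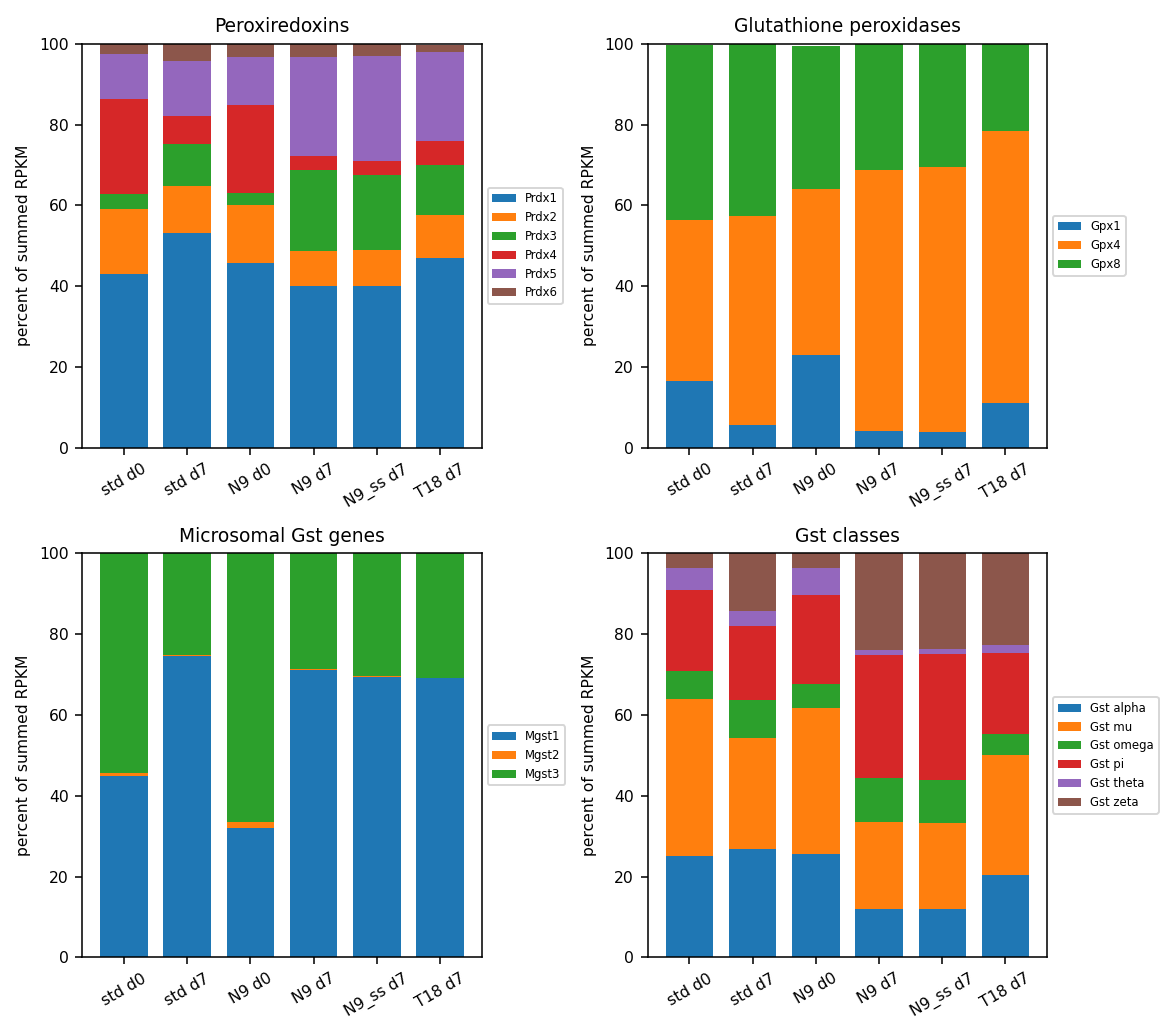
Share of the summed RPKM in percent held by each gene or class in the 6 libraries (std, standard; d0 and d7, days), for the peroxiredoxins, the glutathione peroxidases, the microsomal transferases and the cytosolic transferase classes. Prdx4 gives way to Prdx3, Gpx1 to Gpx4 and Mgst3 to Mgst1 between day 0 and day 7. Gpx7, at most 0.339% of its family, and other members near 0 are not drawn.

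Shares within a family do not move with the scaling of a library, and here they showed the same turn in both library types for several families. The zeta class, which is Gstz1 alone, held 3.71% and 14.3% of the cytosolic transferase RPKM at day 0 and day 7 in the standard libraries, and 3.67% and 23.8% in TELP N9. The mu class went from 39.0% to 27.4% and from 36.0% to 21.7%. The alpha class, nearly all Gsta4, and the pi class turned differently in the library types. Alpha was at 25.0% and 26.9% with the standard method and 25.6% and 11.9% with TELP N9, and pi at 19.97% and 18.3%, and 22.001% and 30.5%. With the near-identical copies Gstp2 and Gsta2 left out, the zeta share became 3.96% and 15.2%, and 3.97% and 27.2%.

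Sorted by the compartment of the protein, a grouping chosen after the values were seen, the 4 members of the mitochondrial matrix (Sod2, Prdx3, Txn2 and Txnrd2) had positive folds in both library types. They ranged from 0.84 to 1.69 log2 units with the standard method and from 1.27 to 2.93 with TELP N9, and 2 of the 4, Sod2 and Prdx3, were called in both. With T18 as the day 7 TELP library 3 of the 4 turned negative, Sod2 to -0.31, Txn2 to -2.13 and Txnrd2 to -0.66. These are values on the deposited scale, where T18 was at least 1 log2 unit below N9 for 83.4% of all genes. There the median gene stood at -1.77 in T18 against N9. Gpx1 and Prdx5, found in mitochondria and elsewhere, were left out of this group. Gpx1 went the other way, with folds of -0.75 and -1.15, and Prdx5 had folds of 0.53 and 1.27. Of the members set down to the endoplasmic reticulum, Prdx4 was lower, Gpx7 was low throughout and below its floor in TELP N9 day 7, and Gpx8 had positive folds. These members thus did not move one way. The microsomal transferases were not counted among them, though all had positive folds. These were 4.48 and 5.97 for Mgst1, 0.68 and 1.23 for Mgst2, and 2.65 and 3.65 for Mgst3. No direction was tested for either group.

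TELP N9 was next set against the standard library of the same day. At day 0 few members differed by method, and 1 member of 37, Gstm3, was called higher in TELP N9 than in the standard library and 0 lower, beside 2.2% and 0.718% of all genes. Its log2 difference was 1.54, that of Txn1 just missed the threshold at 0.98, and 20 members lay within 0.25 log2 units of 0. At day 7 more members differed, with 4 of 38 higher in TELP N9 and 5 lower, beside 7.51% and 17% of all genes. Those higher were Gpx4 at 1.27, Mgst3 at 1.25, Sod1 at 1.22 and Txn1 at 1.09. Those lower were Gstt1 at -1.91, Gsta4 at -1.59, Gstt3 at -1.41, Prdx4 at -1.08 and Gstm5 at -1.08. No member was called in the same direction on both days, Txn1 coming nearest.

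**Figure D4:**
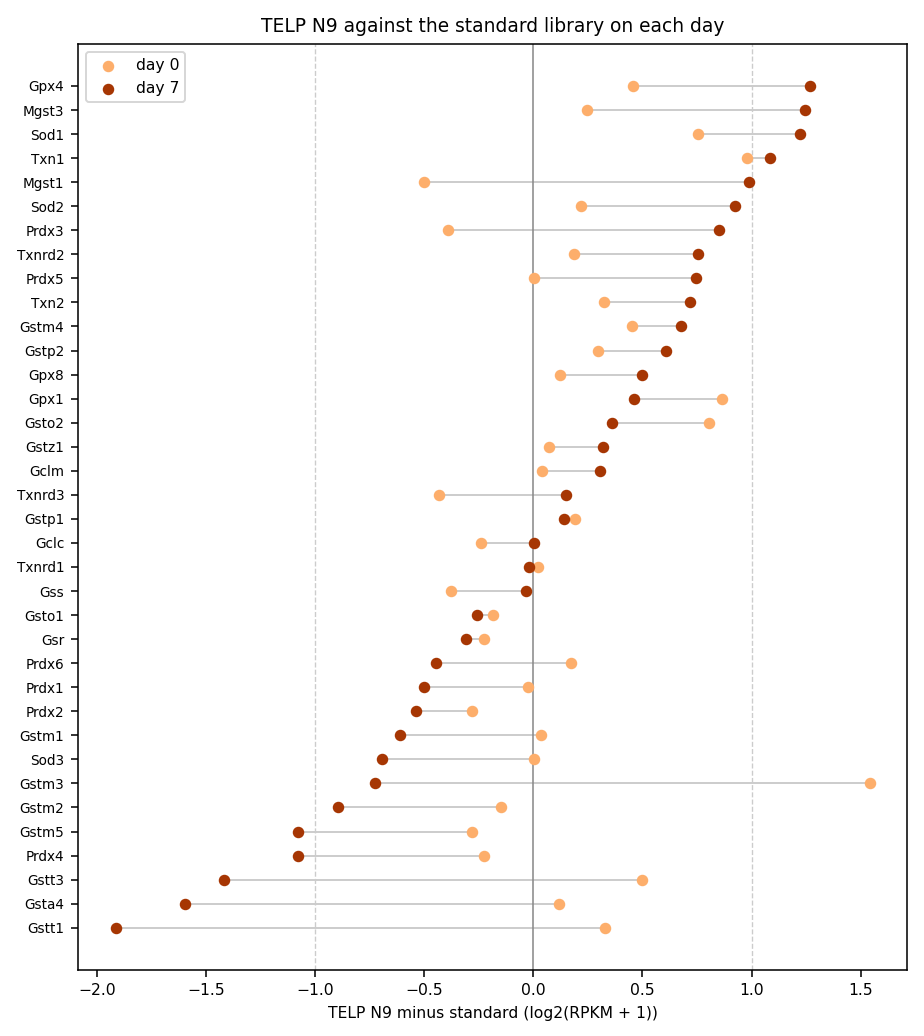
TELP N9 minus standard in log2(RPKM + 1) for 36 members on day 0 (light) and day 7 (dark), ordered by the day 7 value, with dashed lines at 1 and -1. The light points run from Mgst1 at -0.50 to Gstm3 at 1.54, with Txn1, Gpx1, Gsto2 and Sod1 also well above 0, while the dark ones spread from Gstt1 at -1.91 to Gpx4 at 1.27.

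At day 7 the calls also depended on scaling. With median of ratios 11 members were higher and 3 lower (78.6% of calls higher, against 44.4% on the deposited scale), and with equal totals 0 were higher and 15 lower. All genes moved alike, with 1379 higher and 1051 lower (56.7% of calls higher, against 30.7%) and, with equal totals, 274 and 5010. Gstt1 and Gsta4 were called lower under each of the scalings run, at -1.55 and -1.23 with median of ratios. Higher calls did not hold in that way: Gpx4 was at 0.49 and Sod1 at 0.45 with equal totals.

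The change from day 0 to day 7 itself differed between the library types for 7 of 37 members. It was at least 1 log2 unit greater in TELP N9 for Mgst1 by 1.49, for Prdx3 by 1.24 and for Mgst3 by 1.00, which were high at day 7 in both. It was lower for Gstm3 at -2.26, Gstt1 at -2.24, Gstt3 at -1.91 and Gsta4 at -1.71, all cytosolic transferases. Over all genes 5.99% had a greater and 17.2% a lower change in TELP N9 by as much. This difference has 1 library in each cell and was not tested. Greater changes were 42.9% of these members' calls on the deposited scale, 60% with median of ratios (6 greater, 4 lower) and 28.6% with quantile normalization (2 greater, 5 lower). With equal totals 0 members had a greater change and 12 a lower one, while Gstm3, Gstt1, Gstt3 and Gsta4 stayed lower by at least 1 unit under every scaling run. Of all genes' calls 25.8% were greater changes on the deposited scale, 52.0% with median of ratios, 44.7% with quantile normalization and 7.38% with equal totals (306 greater, 3842 lower).

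The further day 7 libraries differed from each other. N9_ss repeated N9 closely: 0 of 38 members were called higher and 0 lower, beside 0.0194% and 0.00968% of all genes, and 37 of 38 lay within 0.25 log2 units. Of genes above 0 and below 1 RPKM in both, 83.7% had values equal to within 0.05% once scaled by depth, and of members 8 of 44 to within 0.1%. The 2 libraries were not taken as replicates, since the labels do not say how they are related. T18 was lower than N9 almost throughout, with 1 member of 37 higher and 27 lower, beside 0.841% and 83.4% of all genes. The median member was at -1.51 log2 units and the median gene at -1.77.

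Relative to that common shift the members of T18 spread widely. Txn2 at -3.40, Mgst1 at -2.74 and Sod2 at -2.59 were the lowest, and Gsta3 at 2.09, Gpx1 at -0.12 and Gstt3 at -0.22 the highest. Gsta3 passed the filter here only through its T18 value, so its being the 1 higher call is a description. With median of ratios scaling, which brings the median gene to -0.05, the members' median was 0.36, and 13 were called higher and 2 lower, 86.7% of calls in place of 3.57%. For all genes the share of higher calls was 46.8% (1419 higher, 1611 lower) in place of 0.999%. Gpx1, Prdx4, Gstt1 and Gstt3 were among the higher ones, and Txn2 and Mgst2 were the 2 lower ones. Of the 37 members 23 changed sign, 14 of them called lower on the deposited scale. Among these were Sod1, Gpx4, Prdx1 and Gstz1, and no direction is given for them. Within the thioredoxins, where scaling has no part, Txn2 held 54.5% of the summed RPKM in N9 and 16.5% in T18 of the same day.

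**Figure D5:**
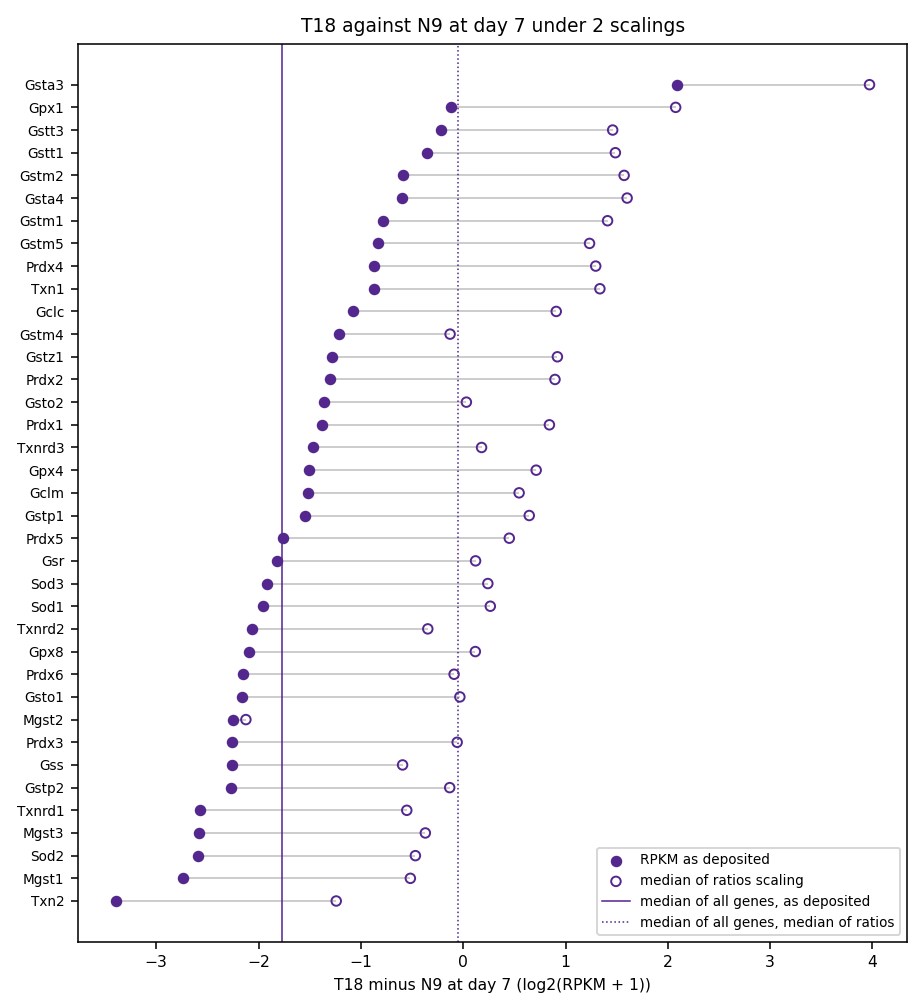
T18 minus N9 at day 7 in log2(RPKM + 1) for 37 members, on the deposited scale (filled) and after median of ratios scaling (open), with vertical lines at the median of all genes on each scale. Filled points lie below 0 except for Gsta3, open points lie on both sides of 0, and Txn2 is the lowest filled point.

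Genes around these enzymes were taken from 7 lists, whose counts stand beside the 7.23% of all genes higher in both library types and the 5.81% lower. NRF2 and its other targets showed no call in both library types, 0 higher and 0 lower of 21 kept. By limma with Benjamini-Hochberg adjustment 0 passed. An unadjusted limma p below 0.05 was found for 5 of them (23.8%), beside 27.3% of all genes. Nfe2l2, which encodes NRF2, had folds of -0.96 and -1.22, its inhibitor Keap1 -0.10 and 0.36, and the targets Nqo1 -0.62 and -2.52 and Hmox1 0.92 and 0.56. Of 12 genes that supply NADPH, 5 were higher in both and 0 lower. Me1, malic enzyme, had folds of 3.40 and 3.67 (limma with Benjamini-Hochberg adjustment, adjusted p = 0.0312), Taldo1 of 2.26 and 2.78 and G6pdx, which opens the pentose phosphate pathway, of 1.30 and 1.76, and the others were Idh1 and Mthfd2, named after their values were seen. The members that use NADPH directly, Gsr and the 3 thioredoxin reductases, had folds between -0.19 and 1.06 in the standard libraries and between -0.24 and 1.41 in TELP N9.

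Of 12 genes that make or remove peroxide and superoxide outside the families above, 4 were higher in both library types and 0 lower. Cat, which encodes the peroxisomal enzyme catalase, was at 63.3 and 340.3 RPKM with the standard method and 52.2 and 406 with TELP N9. Ucp2, a mitochondrial carrier, had log2 folds of 3.78 and 5.53. It passed limma with Benjamini-Hochberg adjustment (adjusted p = 0.0456), and Cat did not (adjusted p = 0.0567). Romo1 was also among the 4, and is named after its values were seen.

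Of 15 genes for glutathione turnover and cysteine supply, 3 were higher in both and 1 lower. Cth, which makes cysteine from cystathionine, had folds of 2.16 and 1.86, Slc25a39, which carries glutathione into mitochondria, of 1.41 and 2.47, and Anpep, a surface peptidase, of -1.21 and -4.00, while Hagh was the third higher one, named after its values were seen. Of 18 genes for thiol repair 3 were higher and 1 lower. Txnip, which binds and inhibits thioredoxin, had folds of 1.53 and 3.70, Msra, which repairs oxidized methionine, of 1.98 and 3.10, and Nxn, nucleoredoxin, of -1.02 and -2.39, with Glrx5 as the third higher one, named after its values were seen. Of 14 genes for selenoproteins and their synthesis 0 were higher and 1, Sepw1, lower. Of 8 relatives of the transferases 2 were higher and 0 lower: Ltc4s, of the same superfamily as the Mgst genes, was at 0.542 and 35.4 RPKM in the standard libraries while TELP N9 listed it at 0 and then at 170.2, and Ptges2 had folds of 1.22 and 2.19.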

How the data were processed

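RNA of 6 libraries was analysed. The authors deposited RPKM values for 24029 genes. Bowtie2, TopHat, Cufflinks and the mm9 build are named per the submitters' processing notes. The sources used here give no versions, annotation, strand handling or read totals, so depth is known only as ratios between libraries and intervals for counting error are not given.

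Differences were taken on log2(RPKM + 1), with a filter at a mean of 1 RPKM and calls at 1 log2 unit. limma 3.58.1 (R 4.3.3) fitted library type and day to 4 libraries with a mean-variance trend. Other steps ran in Python 3.11.15 with pandas 2.3.3, numpy 2.4.6 and matplotlib 3.10.9. The calls and the limma fit were tested on simulated data.

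The members and the gene lists were chosen with earlier results of these data known. Members named with values in every library were those called in both library types, the leading member of each family, the 4 with the largest difference of folds, the extremes of T18 and 12 enzymes set by name. From each other list up to 3 called genes were named. Further members and genes were named after their values were seen. Alternatives covered the pseudocount, the filter, scaling with and without small noncoding RNAs, N9_ss or T18 in place of N9, near-identical copies and limma. Protein sequences were not used here. A gene of the pathway lists that the naming rule selects is not reported here.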

Additional observations from a re-analysis of the deposited data

Results flagged for a closer look

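Gsta4, a transferase for lipid aldehydes, was higher at day 7 by 0.20 log2 units in the standard libraries and lower, at -1.51, in TELP N9, a difference of -1.71. It drew notice because the library types gave opposite directions under the same contrast. With 1 library in each cell this difference was not tested. It was -1.33 with median of ratios scaling, -2.24 with equal totals and -1.88 with quantile normalization. At day 0 both library types gave nearly the same level, 155 RPKM in the standard and 169 in TELP N9, and at day 7 they gave 179 and 58.5.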

How the results depend on the processing

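Of 130 alternatives for counts and shares 108 stayed within the limits set and 22 moved, and of 1408 for single members 1270 stayed on the same side of the threshold and in 19 a called value changed sign. These cover the members named by rule and do not count sign changes of values that were not called. The 8 members called in both library types were the same genes with equal totals. Median of ratios added Txn2 and Gsr and quantile normalization added Gsr. With T18 in place of N9, 2 members were higher in both types, and 3 were higher and 23 lower in TELP alone. Sod1 (-0.27), Sod2 (-0.31), Txn2 (-2.13) and Txnrd2 (-0.66) changed sign. Shares of all genes for this swap are not given, and T18 was at least 1 log2 unit below N9 for 83.4% of all genes. limma called 1 member higher and 0 lower, and without a trend, added after seeing the data, also 1 and 0. For day 7 against day 0 in TELP N9, 7 were higher with equal totals and 4 lower with median of ratios. A pseudocount of 0.1 RPKM gave 2 members higher in TELP N9 at day 0. For TELP N9 against standard at day 7, median of ratios gave 11 higher and 3 lower, and equal totals 0 and 15. Equal totals without small noncoding RNAs gave 0 and 6 there, beside 489 higher and 2538 lower of all genes. For the difference of folds, median of ratios gave 6 greater, and equal totals 0 greater and 12 lower. For T18 against N9 a filter at 5 RPKM left 0 higher, median of ratios gave 13 higher and 2 lower, and quantile normalization 12 and 2. Without small noncoding RNAs median of ratios again gave 13 and 2. Equal totals without them gave 3 higher and 9 lower, in place of 1 and 27. For all genes the equal totals counts were 314 and 4010, in place of 73 and 7778. There 23 of all 37 members changed sign with median of ratios (14 of them called on the deposited scale), 21 with quantile normalization (12) and 0 with equal totals. Of the members named by rule and called, the sign changed with median of ratios and quantile normalization for Gclc (0.91 and 0.93), Gclm (0.55 and 0.58), Gpx4 (0.71 and 0.20), Gsr (0.12 and 0.22), Gstp1 (0.65 and 0.49), Gstz1 (0.92 and 0.71) and Prdx1 (0.84 and 0.48), and with median of ratios for Sod1 (0.26). The cause of these moves was not tested.

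No paired analysis was possible because no replicate number pairs the RNA libraries: each group holds 1 library, and the groups that share numbers are chromatin samples, which were not analysed here. The limma fit pairs the days by library type instead. Each group has 1 library, and leaving out a replicate was not run. T18 holds 6797 genes at 1 RPKM or more and the other libraries 10306 to 11306, so low members are least certain there.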
